A study of Rattus norvegicus with 12 samples.

Results

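The rostral ventrolateral medulla (RVLM) of young adult rats was described from 4 one-colour arrays of 3 animals, out of 12 arrays of 9 animals in the study. The arrays were chosen by the label young, and no measured value entered the choice. All animals were male rats of the inbred F344 strain with no treatment or transgene named in the labels: 3 young animals aged 3 months, 3 middle-aged animals aged 12 months and 3 aged animals aged 24 months. The RVLM was micropunched from snap-frozen brain after decapitation under isoflurane. A punch holds every cell type within its circle, so fewer cells of a type and less RNA per cell cannot be told apart. Young replicate 3 was hybridised to 2 arrays, which were averaged.

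The RVLM holds the presympathetic neurons that drive sympathetic outflow to the heart, kidney and blood vessels. Many of them are C1 cells, which make catecholamines through tyrosine hydroxylase (Th) and dopamine beta-hydroxylase (Dbh) and also load glutamate into vesicles through the transporter encoded by Slc17a6. They are held in check by GABA and glycine, released from vesicles filled by the Slc32a1 product, and are tuned by peptides such as angiotensin II, by monoamines and by local glia.

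A level here is the log2 processed signal of a probe minus the 75th percentile of the same array, so that 0 is the 75th percentile. Values with ± are means and SDs over the 3 young animals (n = 3). A gene counted as well above background when the scanner software set that flag for at least 1 of its probes on all 4 young arrays, as well above background in part when its best probe had the flag on some of them, and otherwise as not well above background. Outlier spots were left out, so a probe with no spot left on an array counted as without the flag there. A gene with several probes is shown by the probe with the highest mean signal over all 9 animals, and the rank percentile places that probe's young mean among 18336 named genes, 100 being the brightest. For Calb1, Calca, Col1a1, Gabre and Tnr another probe was brighter in the young animals alone. Probes differ in brightness per molecule, so a rank orders probe signals and not transcript numbers.

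The young arrays had 73.5% to 75.4% of their spots flagged as well above background and 0 saturated, and the lowest such signal lay at a level of −6.25 to −5.97. Of 18336 named genes 13810 (75.3%) were well above background, 1037 (5.66%) were so in part and 3489 (19.0%) were not. Of 669 genes on 40 lists of transmitter, receptor, peptide, channel, neuronal, glial, vascular, regional and other-organ genes, 554 were well above background, 44 were so in part and 71 were not. The flag and the rule of at least 1 probe are together permissive. Of 32 genes typical of liver and other organs 16 passed on all 4 young arrays, with a median rank percentile of 26.4 for that list. Among them were the insulin gene Ins1 (−1.51 ± 0.13) and the albumin gene Alb (−3.53 ± 0.39). The other Alb probes had the flag on 1 and 0 young arrays. Presence of the flag at a low level is therefore given as a signal and no more. Young replicate 1 stood apart on some cerebellar and on meningeal genes and young replicates 2 and 3 on cholinergic, Hox and peptide genes, with values below. Without young replicate 1, 2 or 3 the list members well above background numbered 555, 558 and 561. With fewer arrays to pass, these counts could only stay or rise.

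The probes that carried the defining markers of the region are shown because every level below is the brightness of such a 60-base sequence. The sequences are those in the array files, in lower case because no part of them was singled out. Th and Dbh are given whole, and Slc17a6 and Slc32a1 by their first 30 bases.
Th: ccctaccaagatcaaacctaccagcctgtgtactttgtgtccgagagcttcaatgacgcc
Dbh: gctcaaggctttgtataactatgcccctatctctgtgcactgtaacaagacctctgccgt
Slc17a6: gccctgctactgcgaatataaaacgtgaag
Slc32a1: tcggaaacttgaccttgggggtggggtggg

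On the rat build rn3, as the array files give it, the Th probe lies at chr1:203318940-203318999 and the Dbh probe at chr3:6068494-6068553. The Slc17a6 probe lies at chr1:101543939-101543998 and the Slc32a1 probe at chr3:149252692-149252751. The file names each gene; which exon or untranslated part a probe lies in was not analysed here. The Th and Slc17a6 probes were printed in 10 spots per array and the other 2 in 1 spot each.

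All 4 markers of the region were well above background in each young animal. Th read 1.39, 1.44 and 1.79 in young replicates 1 to 3 (1.54 ± 0.22, rank percentile 80.6). Dbh read 0.87, 1.13 and 0.51 (0.84 ± 0.31, rank percentile 74.5). Slc17a6, the vesicular glutamate transporter of brainstem neurons, read 4.24, 4.47 and 4.20 (4.30 ± 0.14, rank percentile 95.8), and was the steadiest of the 4. Slc32a1 read 2.72, 2.52 and 3.35 (2.87 ± 0.43, rank percentile 89.6), with young replicate 3 the highest. No young animal lacked the catecholamine, glutamate or inhibitory signal. Of other C1 markers, Pnmt, which makes adrenaline, has no named probe and was not analysed here. Phox2a, a transcription factor of noradrenergic and adrenergic neurons, read −0.89, −0.74 and −1.33, well above background on all 4.

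**Figure D1:**
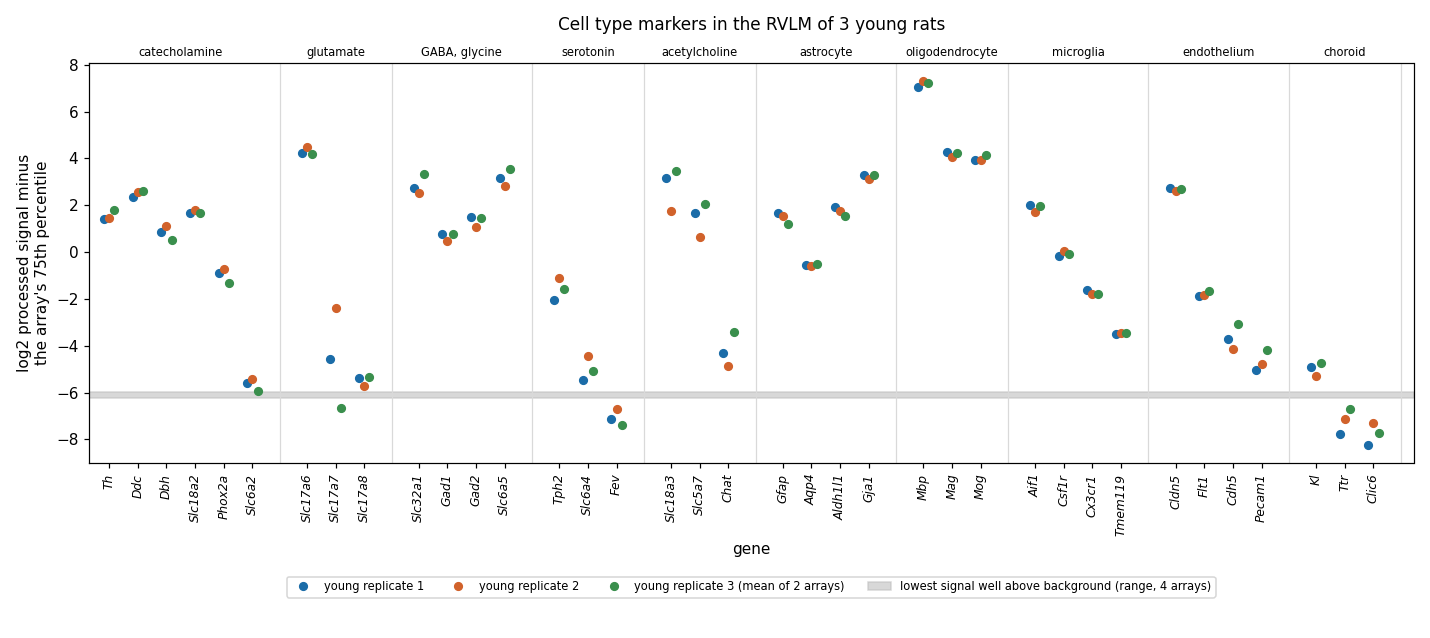
Levels of cell type markers in the 3 young rats (vertical axis, log2 processed signal minus the array's 75th percentile; 1 point per animal, genes on the horizontal axis); the grey band spans the lowest signal well above background on the 4 arrays. Th lies at 1.39 to 1.79 and Slc17a6 at 4.20 to 4.47, while Fev, Ttr and Clic6 lie below the band in all 3 animals.

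The lists of transmitter, peptide, glial and vascular genes were more often well above background than all named genes, of which 75.3% were. By family the counts were 65 of 73 transmitter genes, 158 of 195 receptor genes, 57 of 63 peptide genes, 105 of 123 channel genes, 17 of 17 pan-neuronal genes, 65 of 69 glial genes and 45 of 46 vascular genes. Regional genes had 31 of 57. The lowest share was that of the caudal Hox genes, with 3 of 15. These lists were chosen as known brain genes and no list was tested. The median level of the members of the first 7 families was −0.98 (rank percentile 57.4), against −1.81 over all named genes.

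**Figure D2:**
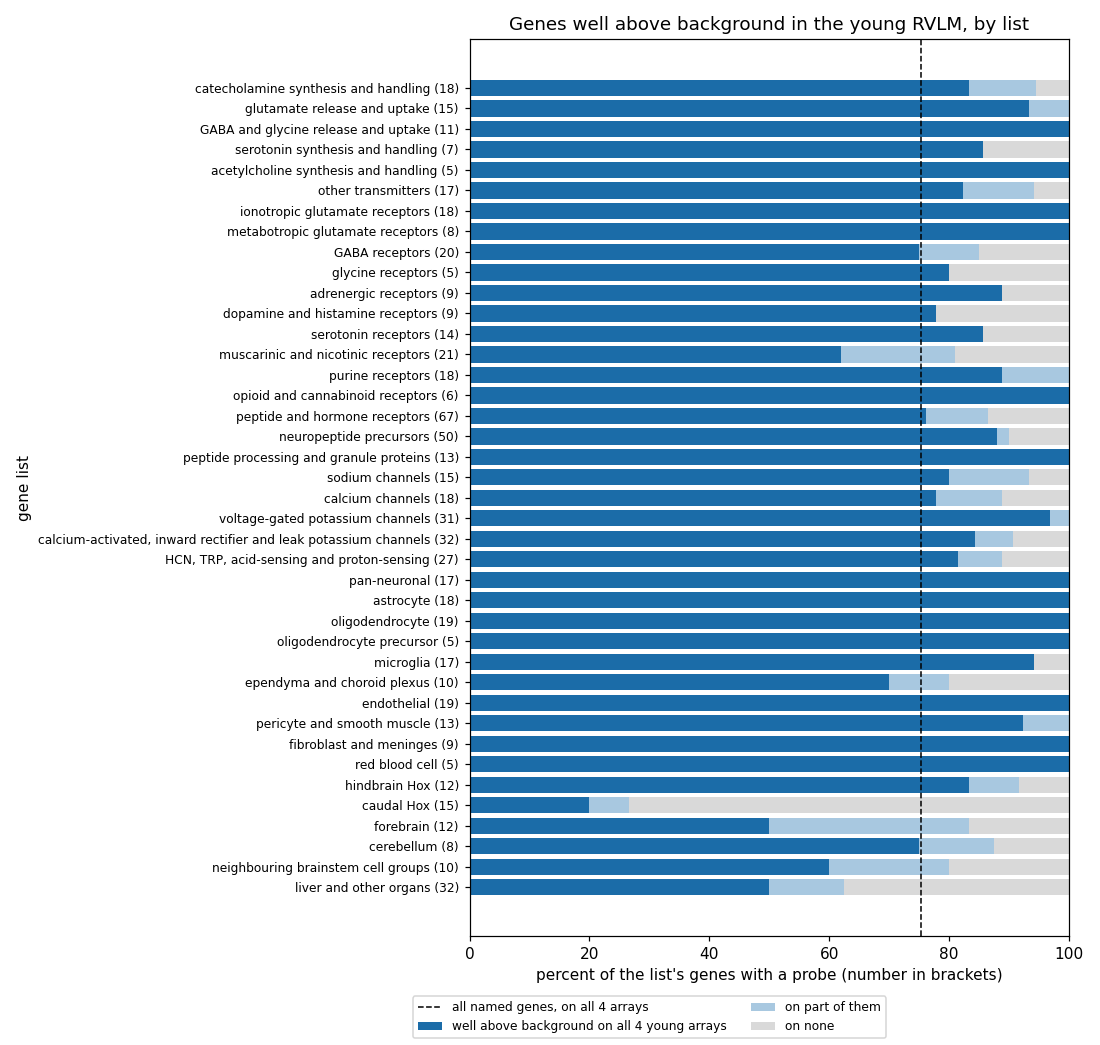
Share of each list's genes with a probe (horizontal axis, percent; number of genes in brackets) that were well above background on all 4 young arrays, on part of them or on none. The dashed line marks the 75.3% of all named genes; the caudal Hox list (20.0%) is the shortest dark bar and several brain lists reach 100%.

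Catecholamine genes were well above background in 15 of 18 cases. Their brightest probe was that of Qdpr, the dihydropteridine reductase that regenerates the tetrahydrobiopterin cofactor of Th, at 7.29, 7.36 and 7.43 (rank percentile 99.8). Ddc, which turns L-DOPA into dopamine, read 2.50 ± 0.14, and Slc18a2, which fills monoamine vesicles, 1.72 ± 0.08. Gch1, which starts cofactor synthesis, read −2.65 ± 0.04. The degrading enzymes Maoa (1.58 ± 0.14) and Maob (−0.95 ± 0.12) were well above background. The plasma membrane transporters that take catecholamines back up lay near or below the floor: the noradrenaline transporter Slc6a2 read −5.61, −5.44 and −5.94 with the flag on 3 of 4 arrays, and the dopamine transporter Slc6a3 read −8.23, −8.00 and −8.02 with the flag on 0.

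Glutamate genes were well above background in 14 of 15 cases, with the exception of Slc17a7. The astrocyte uptake and recycling genes Slc1a3 (4.67 ± 0.13), Glul (4.37 ± 0.11) and Slc1a2 (2.93 ± 0.06) were bright in every animal. Of the other vesicular glutamate transporters Slc17a7, the cortical and cerebellar form, read −4.56, −2.40 and −6.66, with the flag on 2 of 4 arrays and 1 animal below the floor. Slc17a8 read −5.40, −5.70 and −5.32, just above the floor.

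GABA and glycine genes were well above background in 11 of 11 cases. Slc6a5, the uptake transporter that marks glycine neurons, read 3.15, 2.80 and 3.54 (rank percentile 91.1). The GABA-synthesising enzymes Gad2 and Gad1 read 1.34 ± 0.25 and 0.67 ± 0.16. In each of Slc32a1, Slc6a5, Gad1 and Gad2, young replicate 2 was the lowest animal. Slc6a13, a GABA transporter of meninges and vessels, read −0.03 in young replicate 1 against −1.23 and −1.30.

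Serotonin genes had 6 of 7 members well above background, all below the 75th percentile. Tph2, the neuronal tryptophan hydroxylase, read −2.05, −1.12 and −1.56. The serotonin transporter Slc6a4 read −5.46, −4.46 and −5.07, close to the floor. Both were highest in young replicate 2. Gata2 and Tph1 read −2.64 ± 0.49 and −4.01 ± 0.41. Fev, a transcription factor of serotonin neurons, was not well above background on any young array (−7.07 ± 0.33).

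Acetylcholine genes were well above background in 5 of 5 cases and varied with the animal. The vesicular transporter Slc18a3 read 3.14, 1.76 and 3.48, and the choline transporter Slc5a7 1.65, 0.63 and 2.05. Chat, the synthesising enzyme, read −4.30, −4.86 and −3.40. In all 3 genes young replicate 2 was lowest and young replicate 3 highest. The esterase Ache did not follow that order, at 3.08, 3.28 and 3.02.

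Among enzymes of gaseous and other messengers 14 of 17 were well above background. Haem oxygenase 2 (Hmox2), the constitutive source of carbon monoxide, read 4.51 ± 0.07, the adenosine kinase Adk 1.32 ± 0.14, and the nitric oxide receptor subunits Gucy1b1 and Gucy1a1 read 2.19 ± 0.07 and 0.05 ± 0.19. Of the nitric oxide synthases only the endothelial Nos3 (−0.87 ± 0.11) had the flag on all arrays. The neuronal Nos1 read −5.90 ± 0.15 with the flag on 1 array, and the inducible Nos2 (−8.08 ± 0.23) had it on 0. The histamine-synthesising Hdc also had it on 1 array.

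All glutamate receptor genes with a probe passed: 18 of 18 ionotropic and 8 of 8 metabotropic glutamate receptor genes were well above background. The NMDA subunits Grin2c (3.64 ± 0.11) and Grin1 (3.48 ± 0.10) had the brightest probes, and Grin3b (1.13 ± 0.18) came next. The AMPA subunits Gria4, Gria2, Gria3 and Gria1 read 0.88 ± 0.13, 0.72 ± 0.10, −0.04 ± 0.13 and −0.16 ± 0.06. The kainate subunit Grik3 (−5.67 ± 0.23) was nearest the floor, and Grik1 had the largest SD (−1.61 ± 0.56). Grm3, a receptor of astrocytes and nerve endings, led the metabotropic genes at 2.58 ± 0.07. Grm8 read 1.14, 1.77 and 0.44, and was highest in young replicate 2 and lowest in young replicate 3.

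GABA receptor genes were well above background in 15 of 20 cases, close to the 75.3% of all named genes, and glycine receptor genes in 4 of 5. Gabbr2, a subunit of the metabotropic GABA-B receptor, was the brightest (4.11 ± 0.12), ahead of the ionotropic subunits Gabrb1 (2.29 ± 0.12) and Gabrq (1.51 ± 0.16). The rho and pi subunits Gabrr1, Gabrr3 and Gabrp were not well above background on any array, and Gabrr2 was so on 2. Gabra6, the subunit of cerebellar granule cells, read −0.59 in young replicate 1 but −7.42 and −8.23 in the others, with the flag on 1 array. Gabrd, common in those cells as well, read 0.06 against −1.73 and −2.09. The adult glycine receptor genes Glra1 (−0.28 ± 0.12) and Glrb (−0.49 ± 0.12) and also Glra2 (−0.21 ± 0.12) and Glra3 (−2.93 ± 0.36) were well above background; Glra4 (−8.13 ± 0.12) was not.

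Adrenergic receptor genes were well above background in 8 of 9 cases, the exception being Adrb3 (−6.31 ± 0.24). The brightest was Adra1b, an alpha-1 receptor, at 0.84, 1.48 and 0.88, followed by Adra1d at −0.73, −0.32 and −0.01. The place of Adra1b rests on its brightest probe. Its other probes read −4.85, −4.58 and −4.83, and −3.69, −3.53 and −3.82. The alpha-2 receptors, the targets of clonidine-type drugs, read −1.21 ± 0.24 for Adra2c, −1.84 ± 0.30 for Adra2a and −3.10 ± 0.21 for Adra2b. Of the dopamine receptors Drd2 (−2.63 ± 0.32), Drd5 (−3.28 ± 0.02) and Drd3 (−4.00 ± 0.11) were well above background, and Drd1 (−7.44 ± 0.23) and Drd4 (−6.58 ± 0.20) were not. All 4 histamine receptor genes were, led by the presynaptic Hrh3 (−1.02 ± 0.36); Hrh1 read −3.60, −2.26 and −4.29.

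Serotonin receptor genes were well above background in 12 of 14 cases, Htr1f and Htr4 being the exceptions. Htr7, a receptor coupled to cyclic AMP, led with −0.29, −0.26 and −0.24, followed by the ion channel Htr3a (−2.01 ± 0.11). Htr1a, the inhibitory receptor of many brainstem neurons, read −3.43 ± 0.40. The widest spread of the list was in Htr5b, which read −3.01, −0.24 and −3.13, a 7.41-fold range with young replicate 2 the highest.

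Muscarinic and nicotinic receptor genes had 13 of 21 members well above background, a smaller share than all named genes. Chrm3 (1.04 ± 0.30) and Chrna7 (0.72 ± 0.03) were the brightest, Chrna4 followed at −0.61 ± 0.41, and Chrm2, which lowers neuronal firing, read −2.35 ± 0.06. Chrna2, Chrna9, Chrnb3 and the muscle subunit Chrnd were not well above background on any young array. Chrna1, Chrna10, Chrnb1 and Chrm5 had the flag on 1 or 2 arrays. Chrna10 read −3.06 in young replicate 2 against −7.67 and −6.24, the largest SD of the list.

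Purine receptor genes were well above background in 16 of 18 cases and opioid and cannabinoid receptor genes in 6 of 6. The adenosine A1 receptor Adora1, a brake on transmitter release, read 3.01, 3.14 and 2.91. P2ry12, the ADP receptor of microglia, read 0.84 ± 0.15, and P2rx6 0.79 ± 0.22. P2rx2, an ATP-gated channel of chemosensory neurons, read −2.62, −1.84 and −3.69, again with young replicate 2 highest and young replicate 3 lowest. P2rx1 and P2ry4 had the flag on 1 and 2 arrays. The nociceptin receptor Oprl1 read 0.92 ± 0.04 and the cannabinoid receptor Cnr1 0.54 ± 0.15. The delta, kappa and mu opioid receptors Oprd1, Oprk1 and Oprm1 read −1.34 ± 0.13, −2.03 ± 0.44 and −3.81 ± 0.33.

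Peptide and hormone receptor genes were well above background in 51 of 67 cases, close to the 75.3% of all named genes. The brightest were the neurotensin receptor of astrocytes Ntsr2 (4.31 ± 0.10), the calcitonin gene-related peptide receptor partner Ramp1 (3.12 ± 0.15), the endothelin receptor Ednrb (2.48 ± 0.15) and the natriuretic peptide receptors Npr2 (2.47 ± 0.08) and Npr1 (2.32 ± 0.13). Agtr1a, through which angiotensin II excites RVLM neurons, read −0.38, −0.42 and −0.48 (rank percentile 62.6), one of the steadier values of the list. That place and steadiness rest on the brightest Agtr1a probe. A second Agtr1a probe, flagged on all 4 young arrays, read −2.15, −2.11 and −2.56. The Agtr1a paralog Agtr1b (−7.49 ± 0.32) was not well above background, and the type 2 receptor Agtr2 read −1.65 ± 0.11. A second Agtr2 probe had the flag on 0 young arrays and read −7.86, −7.07 and −8.00. Mas1, the receptor of angiotensin-(1-7), read −4.12, −3.19 and −6.26 with the flag on 2 arrays.

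Other receptors studied in this region were also measurable. The substance P receptor Tacr1 read 0.16, −0.60 and −0.17, the orexin receptors Hcrtr1 and Hcrtr2 −1.54 ± 0.13 and −2.26 ± 0.22, the vasopressin receptor Avpr1a −1.77 ± 0.19, and the melanocortin receptor Mc4r −1.38 ± 0.20. The glucocorticoid receptor Nr3c1 read 0.71 ± 0.17 and the mineralocorticoid receptor Nr3c2 0.66 ± 0.12. Calcr, the calcitonin receptor, had the largest spread of those on all arrays, at −0.81, −1.37 and 0.17. The 9 receptor genes without the flag on any young array were Avpr1b, Prlhr, Nmur2, Npy4r, Agtr1b, Oxtr (the oxytocin receptor), Npffr1, Esr1 (an oestrogen receptor) and Vipr1. The flag was set on 1 or 2 arrays for Npy2r, Tacr2, Npffr2, Grpr, Galr3 and Mc3r.

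Neuropeptide precursor genes were well above background in 44 of 50 cases, and 13 of the 44 differed by more than 1 log2 unit among the 3 animals. Agt, the angiotensinogen gene of astrocytes, was the brightest at 6.11, 6.01 and 6.03. Somatostatin (Sst) read 6.07, 5.50 and 6.26, and proenkephalin (Penk) 5.18, 4.87 and 5.22. Neuropeptide Y (Npy), made by many C1 cells, read 5.20, 4.95 and 4.78. The substance P gene Tac1 read 3.63, 3.35 and 4.15. These 5 precursors lay far above the 75th percentile in every animal.

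Other precursors separated the animals. Galanin (Gal) read 3.59 and 3.59 in young replicates 1 and 2 but 1.73 in young replicate 3, and Tac3 read 1.15 and 0.79 against −1.49. The calcitonin gene-related peptide genes Calca (0.50, −1.61 and 1.04) and Calcb (1.23, −0.09 and 1.71) and urocortin (Ucn: −1.41, −3.68 and −1.17) were lowest in young replicate 2. A second Calca probe, flagged on all 4 arrays, did not show this and read 0.17, 0.32 and 0.15. Corticotropin-releasing hormone (Crh) was highest there, at −0.13, 0.89 and −1.02. Vip was highest in young replicate 3, at −1.66, −2.21 and −0.29. Steadier members were Cartpt (1.88 ± 0.32) and Adcyap1 (0.51 ± 0.04), both known in RVLM neurons, and adrenomedullin (Adm: −0.14 ± 0.15). Precursors best known from the hypothalamus had the flag as well, with Pomc at 0.79, 0.36 and 0.25, Avp at −0.97 ± 0.14, Hcrt at −2.66 ± 0.07 and Oxt at −4.43 ± 0.09. Ucn2, Rln3, Gcg, Nppb and Qrfp were not well above background on any array, and Prok2 was so on 1.

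Genes for peptide processing and dense-core granules were well above background in 13 of 13 cases, with a median rank percentile of 96.2. The granins Chgb (6.32 ± 0.24) and Vgf (5.91 ± 0.29) and the convertase chaperone Scg5 (6.22 ± 0.22) led the list, and carboxypeptidase E (Cpe) read 5.37 ± 0.05. The convertases Pcsk2 and Pcsk1 read 0.64 ± 0.10 and −1.54 ± 0.07. Cadps2, a granule priming factor, had the largest spread, at 0.39, 0.42 and −0.38.

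**Figure D3:**
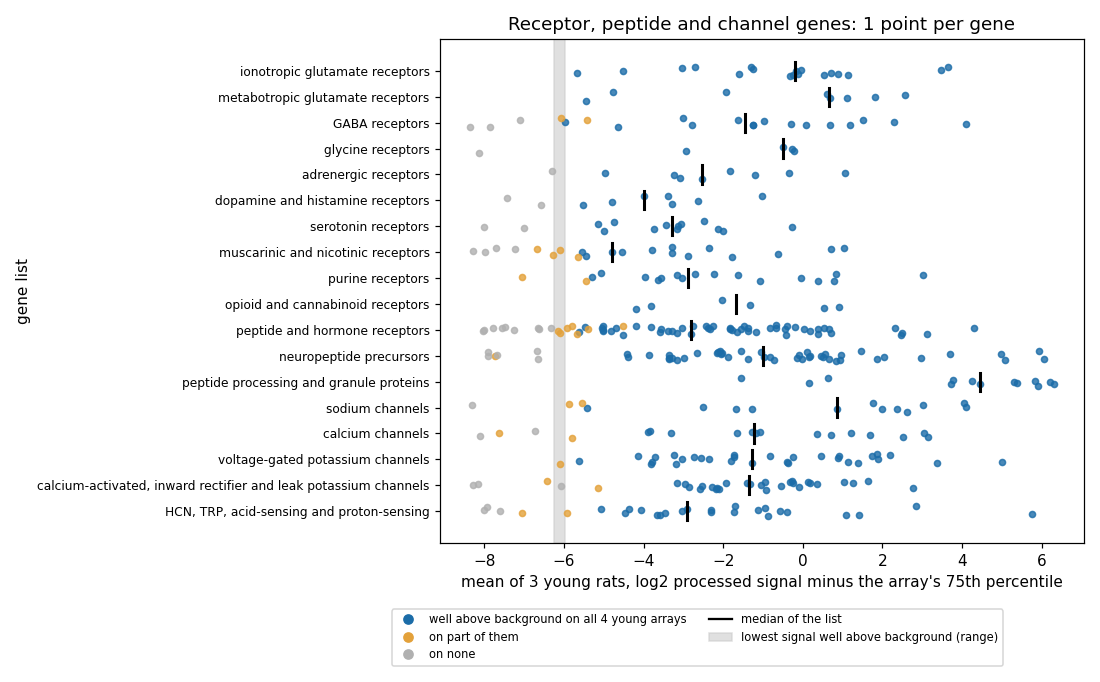
Mean level over the 3 young rats of each receptor, peptide and channel gene (horizontal axis, log2 processed signal minus the array's 75th percentile), by list; colours give the arrays with the flag, black bars the list medians and the grey band the lowest signal well above background. Peptide processing genes have the highest median (4.45) and muscarinic and nicotinic receptors the lowest (−4.78).

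Sodium channel genes were well above background in 12 of 15 cases. The beta subunits Scn4b (3.89, 4.77 and 3.66) and Scn3b (4.05 ± 0.17) and the leak channel Nalcn (3.01 ± 0.11), which sets resting excitability, were the brightest. The pore subunits of central neurons Scn2a, Scn1a, Scn3a and Scn8a read 2.36 ± 0.28 (flag of this Scn2a probe on 3 arrays), 1.99 ± 0.21, 1.75 ± 0.14 and 0.85 ± 0.11. The Scn2a level lay far above the floor, and whether an outlier spot accounts for the missing flag was not analysed here. The muscle channel Scn4a (−8.31 ± 0.14) was not well above background, and the sensory Scn11a was so on 2 arrays. Scn7a, a sodium-sensing channel, read −1.16, −1.83 and −0.83.

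Calcium channel genes were well above background in 14 of 18 cases (77.8%), close to the 75.3% of all named genes. The auxiliary subunits Cacnb3 (3.14 ± 0.24), Cacna2d1 (3.06 ± 0.08) and Cacnb1 (2.52 ± 0.06) had the brightest probes. Among pore subunits the N-type Cacna1b read 1.68 ± 0.07, the L-type Cacna1c and Cacna1d −1.17 ± 0.09 and −1.28 ± 0.15, and the T-type Cacna1g −1.67 ± 0.02. The P/Q-type Cacna1a probe was dim, at −3.89 ± 0.13. The place of Cacna1b above Cacna1a rests on the brightest Cacna1b probe. Its other probe read −5.20, −4.70 and −4.86. The muscle and retinal forms Cacna1s and Cacna1f were not well above background, and Cacna1i and Cacna2d4 were so on 3 and 1 arrays.

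Voltage-gated potassium channel genes were well above background in 30 of 31 cases, Kcnq1 having the flag on 1 array. The brightest was Kcna1, a channel of axons and auditory and motor pathways, at 4.98, 5.15 and 4.85. Kcnh2 read 2.20 ± 0.24. The subunits of the M current Kcnq5 and Kcnq3 read 1.88 ± 0.10 and −0.37 ± 0.17. The A-type Kcnd2 read 1.75 ± 0.08. Kcnh3 read −3.72 ± 0.62, with young replicate 1 the highest.

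Other potassium channel genes were well above background in 27 of 32 cases. The G-protein-gated Kcnj3 (2.76 ± 0.21), the leak channel Kcnk2 (1.63 ± 0.10) and the ATP-sensitive subunits Kcnj8 (1.25 ± 0.13) and Kcnj11 (1.03 ± 0.08) were the brightest. The acid-sensitive leak channels Kcnk9 and Kcnk3 read −1.06 ± 0.13 and −2.59 ± 0.24, and the astrocyte channels Kcnj16 and Kcnj10 0.18 ± 0.08 and −2.15 ± 0.10. Kcnj2, Kcnj15 and Kcnj1 were not well above background on any array, and Kcnj4 had the flag on 1. Kcnj13, a channel of choroid plexus and leptomeningeal cells, read −2.09 in young replicate 1 and −6.64 and −6.68 in the others.

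Pacemaker, TRP and proton-sensing genes were well above background in 22 of 27 cases. Hcn2, a hyperpolarisation-activated pacemaker channel, read 5.82, 5.76 and 5.67 (rank percentile 98.7), and Hcn3 and Hcn4 read −0.96 ± 0.11 and −4.07 ± 0.06. The cation channel Trpc1 read 1.41 ± 0.05, and the proton receptor Gpr4, known for carbon dioxide sensing in the ventral medulla, −0.51, −1.09 and −1.05. Asic1 (−1.12 ± 0.04) and Asic2 (−2.91 ± 0.23) were well above background and Asic3 was not. Neither were the irritant receptor Trpa1 and Trpm5, and Trpm8 and Gpr65 had the flag on 1 array.

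Neuronal and glial genes were among the brightest in all 3 animals. The neurofilament gene Nefm read 6.79 ± 0.26, the synaptic gene Snap25 6.56 ± 0.18 and the enolase Eno2 6.15 ± 0.02. Oligodendrocyte genes were well above background in 19 of 19 cases, with Mbp at 7.18 ± 0.13, Tf at 7.11 ± 0.05 and Mobp at 5.74 ± 0.04. Astrocyte genes were so in 18 of 18 cases, led by Ndrg2 (8.10 ± 0.17), Apoe (7.71 ± 0.06) and Sparcl1 (7.32 ± 0.02). Gfap, the filament gene used to stain astrocytes, read 1.67, 1.54 and 1.18, and the water channel Aqp4 −0.55 ± 0.04. The precursor markers Cspg4 and Pdgfra read 2.19 ± 0.14 and 2.12 ± 0.20. Bcas1, which was put on the same list but is not a marker of precursors alone, read 6.43 ± 0.05.

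Microglial genes were well above background in 16 of 17 cases. The complement chain C1qb (3.90 ± 0.08) and C1qa (3.00 ± 0.06) were among the brightest. Aif1 (the gene of the Iba1 stain) read 1.89 ± 0.15, Csf1r −0.06 ± 0.11, Cx3cr1 −1.73 ± 0.09 and Tmem119 −3.46 ± 0.03. Fcrl2 had the largest spread, at −0.47, −1.13 and −0.83. Siglech (−8.18 ± 0.45) was not well above background.

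Vessel genes were well above background in 19 of 19 endothelial and 12 of 13 pericyte and smooth muscle cases. The glucose transporter of the blood-brain barrier Slc2a1 read 4.11 ± 0.08, the organic anion transporter Slco1c1 3.34 ± 0.10, Itm2a 2.68 ± 0.09 and the tight-junction gene Cldn5 2.68 ± 0.06. The general endothelial markers Flt1, Cdh5 and Pecam1 read −1.79 ± 0.11, −3.63 ± 0.54 and −4.66 ± 0.43. Among mural genes Mcam (2.62 ± 0.12), Notch3 (2.40 ± 0.10) and Vtn (1.99 ± 0.15) were the brightest, Rgs5 read 0.90 ± 0.16 and Pdgfrb −0.28 ± 0.24. The contractile genes Tagln (1.13, −0.11 and 0.60) and Myh11 (−0.39, −1.66 and −0.53) were lowest in young replicate 2, and Cnn1 had the flag on 3 arrays.

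Markers of blood, meninges and ventricle lining were read for tissue beside the RVLM. The haemoglobin gene Hbb-b1 read 6.41, 5.91 and 6.17, Hbb 2.36 ± 0.37 and the red cell enzyme Alas2 −0.33 ± 0.41. The fibroblast and meningeal genes were well above background in 9 of 9 cases. Igf2 read 2.89 ± 0.59, Col1a2 1.71 ± 0.77, Dcn 0.34 ± 0.13, Col1a1 −0.53 ± 0.36 and Lum −3.62 ± 0.13. Of the choroid plexus markers, Ttr and Clic6 were not well above background on any array, and Kl (−4.97 ± 0.29) and Folr1 (−4.88 ± 0.17) were near the floor, and Otx2 had the flag on 1 array. The ciliary factor Foxj1 of ependyma read −1.49 ± 0.12, Rarres2 −0.82 ± 0.22 and Drc12 −4.68 ± 0.15.

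Regional transcription factors were read as a check of where the punches lay. Hox genes of the hindbrain were well above background in 10 of 12 cases, with Hoxa4 at 3.09, 3.20 and 2.87, Hoxa2 at 0.10 ± 0.07, Hoxb2 at −1.69 ± 0.15 and Hoxa3 at −2.16 ± 0.26. Hoxb3 (−4.86, −3.69 and −6.13) had the flag on 3 arrays. Of 15 caudal Hox genes, which mark spinal cord and more posterior tissue, 11 were not well above background on any array, Hoxb9 and Hoxa9 among them. Hoxb7, Hoxc8 and Hoxa7 were well above background, Hoxb7 at −2.75, −1.96 and −3.67. The forebrain factor Emx1 (−8.25 ± 0.13) and the midbrain and cerebellar factor En2 (−7.80 ± 0.67) were not. Other forebrain genes were, including Neurod2 (0.12 ± 0.67), Bcl11b (−1.36 ± 0.39) and Neurod6 (−0.87, 0.15 and −1.77). Rasgrp1, Nkx2-1, Emx2, Six3, the cerebellar Barhl2 and Lmx1a had the flag on 1 or 2 arrays and Hoxc13 on 3. Isl2 and Tbx20, of motor neurons, had it on 0. Prph, an intermediate filament of motor and visceral neurons, read 4.18, 3.75 and 4.77 and the motor neuron factor Isl1 −3.29, −4.96 and −2.85.

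The young animals resembled each other closely over most genes. Over the 13810 genes well above background, the median absolute difference between 2 young animals was 0.120 to 0.131 log2 units, against 0.052 between the 2 arrays of young replicate 3. A range over 1 log2 unit among the 3 animals was found in 55 of 554 list members (9.93%) and in 357 of 13810 named genes (2.59%). In those 55 the median gap between the arrays of young replicate 3 was 0.05. The largest gap was 1.395, in Cdh5, whose 2 arrays differed by more than the animals did and whose other probe read −4.56, −4.60 and −4.61. The 3 animals were hybridised on 1 slide, except for the second array of young replicate 3.

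Young replicate 1 was high in some cerebellar and in meningeal genes. Neurod1, a factor of granule cells, read −0.10 against −3.05 and −2.97, and Pcp2, a Purkinje cell gene, −0.76 against −3.32 and −3.24. In the 6 older animals Neurod1 lay at −3.19 to −2.79 and Pcp2 at −3.36 to −2.96, so that young replicate 1 was above all 8 other animals in both, as it was in Gabra6. The other cerebellar list members well above background did not follow them alike. Car8 was highest in young replicate 1 (−0.85, −1.14 and −1.35), but Calb1 (0.97, 1.37 and 1.16), Barhl1 and Pax6 (−0.12, −0.11 and −0.62) were not. En2 was not well above background on any young array. The meningeal genes Fmod (2.03, −0.70 and −0.01), Ogn (1.20, −0.27 and −0.08), Col3a1 (0.30, −1.45 and −1.04) and Aldh1a2 (−2.02, −3.88 and −3.96) were also highest in that animal. The mean of the 9 fibroblast and meningeal genes was 0.51 there and −1.15 to −0.58 in the 8 others. The markers Th, Dbh, Slc17a6 and Slc32a1 were not at an extreme of the 9 animals there. The part that neighbouring tissue plays in these differences was not tested.

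Young replicates 2 and 3 lay at opposite ends in a further set of genes. Hoxa5 read 3.47 and 1.31 in them and 2.64 in young replicate 1, Hoxc4 0.00 and −1.59 with −0.64 between, and Barhl1 −0.93 and −3.20 with −2.06 between. Crh, Nts, Grm8 and Neurod6 had the same order. Among the older animals Hoxa5 was highest in middle-aged replicate 3 and aged replicate 3, at 3.20 and 2.87, against 1.30 to 2.21 in the other 4. Slc17a7 was highest in the same 2 older animals, at −3.21 and −3.51. The cholinergic genes Slc18a3 and Slc5a7 ran the other way and were lowest in young replicate 2 among the young animals, and lowest in aged replicate 3 (2.14 and 0.82) among the aged. Htr5b, high in young replicate 2 at −0.24, reached 2.25 in aged replicate 3 and −2.77 to −2.24 in the other 5 older animals. Whether the position of the punch moves with these values was not tested.

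**Figure D4:**
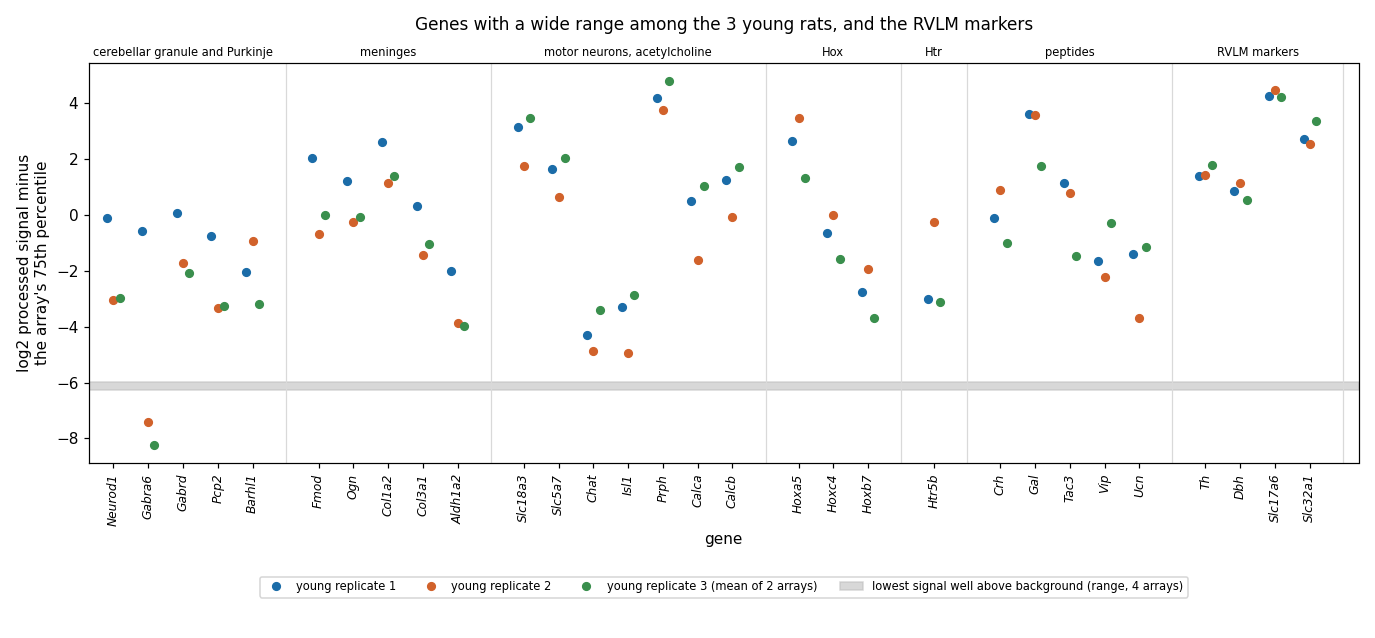
Levels of genes with a wide range among the 3 young rats, chosen after their values were seen, and of the 4 RVLM markers (vertical axis, log2 processed signal minus the array's 75th percentile; 1 point per animal). Young replicate 1 is highest in Neurod1, Gabra6, Pcp2 and the meningeal genes, young replicate 2 in Hoxa5 and Htr5b and lowest in the motor neuron genes, while Th and Slc17a6 lie close together in all 3.

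Probes of the same gene often differed in brightness. Over 4022 named genes with several probes, the 2 brightest probes of a gene differed by a median of 1.79 log2 units in the young animals, and 69.6% differed by more than 1. In 285 of these genes, and in 29 of 158 such list members, 1 probe was well above background on all young arrays and another on none. Gja1, the astrocyte gap junction gene, shows this with a pair of probes that lie close to each other on rn3 chromosome 20. The start of each is printed to show that they are different sequences of 1 gene.
Gja1 bright probe (chr20:35435826-35435885): acaaaaacaaaactcatcacagatgattga
Gja1 dim probe (chr20:35435621-35435680): gtggttaatagaatgattccttataacctt

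The bright probe read 3.27, 3.13 and 3.30 and the dim probe −8.48, −8.24 and −8.25. Vamp2, Scn8a, Csf1r and Ugt8 had such a pair as well. A gene listed as not well above background is therefore so for the probes on this array, and genes with 1 probe, such as Chat and Gfap, rest on that probe alone. Counting only genes with the flag on every probe left 513 of 669 list members instead of 554.

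The list members well above background in the young mostly were so in the older animals too. Of the 554 members well above background in the young, 541 had the flag on all 8 arrays of the other ages. Of the 71 without it, 52 had it on none of the 8. No member had the flag on all young arrays and none of the others, or the reverse (0 each). The same shares over all named genes were not computed, so these counts show nothing particular to the lists.

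Levels were compared between ages with limma over all 9 animals, with Benjamini-Hochberg adjusted p-values over 25446 items, a gene or an unnamed probe each. From here on ± gives the standard error of a difference. The 4 region markers did not pass an adjusted p of 0.05 at either age. Dbh, at 0.87, 1.13 and 0.51 in the young, read 0.47, 0.31 and 0.47 in the middle-aged and −0.07, −0.48 and 0.27 in the aged, and the young values did not overlap either group. Its aged minus young difference was −0.93 (95% interval −1.40 to −0.47, limma adjusted p = 0.064). It passed without aged replicate 3 (−1.11, adjusted p = 0.0426) and when normexp corrected the background (−0.84, adjusted p = 0.0413), and did not with slide as a block (−0.85, adjusted p = 0.15). On slide 3, the only slide with all ages, each age is 1 animal, and young replicate 3 and aged replicate 3 have the lowest young and the highest aged value; their difference of −0.23 is no slide-controlled estimate. Th (−0.06, 95% interval −0.65 to 0.54), Slc17a6 (−0.03, −0.41 to 0.36) and Slc32a1 (0.42, −0.05 to 0.88) had intervals that include 0.

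Some members of the transmitter, receptor, peptide, channel, neuronal, glial and vascular lists differed from the young level. Of 518 tested, 18 were higher and 4 lower in the aged animals. That was a larger share than over all named genes, of which 260 were higher and 88 lower among 14114 tested. The larger share was not spread over the families: 12 of 65 glial genes tested were higher and 3 lower. Elsewhere 2 of 68 transmitter, 3 of 161 receptor, 1 of 57 peptide, 1 of 108 channel, 0 of 17 neuronal and 0 of 46 vascular genes were higher. Of these other families only the vascular had a lower member, 1 of 46. Over all items 382 (1.50%) were higher and 131 (0.515%) lower, 513 (2.02%) in all. The median difference of the members was −0.02, against −0.01 over all named genes tested. Microglial genes made up most of those higher: 12 of 16 tested were higher in the aged, with a median of 0.73. With slide as a block C1qa, C1qc, Cx3cr1 and Ptprc did not pass (adjusted p = 0.11, 0.064, 0.053 and 0.057), which left 8 of 16. C1qa, Cx3cr1 and C1qc also lost their calls when single animals were left out, in 7, 6 and 5 of 9 such fits. This list is not independent evidence, as microglial genes were known to differ in these samples when it was written. Over all items the count fell to 253, 290, 301, 304 and 329 without young replicate 3, aged replicate 2, young replicate 2, aged replicate 1 and aged replicate 3, and to 301 with slide as a block, where 14 members passed instead of 22.

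Outside the microglial list, 6 members rose between the young and the aged animals, beside P2ry12, which is on both lists (1.17 ± 0.11, adjusted p = 0.0022). Qdpr read 7.29, 7.36 and 7.43 in the young and 7.96, 7.99 and 7.89 in the aged, with no overlap (0.58 ± 0.08, adjusted p = 0.0063). Adrenomedullin (Adm), a vasodilator peptide, rose by 1.06 ± 0.14 (adjusted p = 0.0061) and the cannabinoid receptor Cnr2, found mainly on immune cells, by 1.20 ± 0.15 (adjusted p = 0.0057). Qdpr, Adm and Cnr2 passed with each animal left out in turn and with slide as a block. The inducible haem oxygenase Hmox1 (0.39 ± 0.08, adjusted p = 0.048) and the potassium channel Kcnn4 (0.66 ± 0.13, adjusted p = 0.048) did not pass with slide as a block (adjusted p = 0.10 and 0.15). Hmox1 lost its call without any 1 animal but young replicate 2 (highest adjusted p = 0.148), and Kcnn4 without any 1 but middle-aged replicates 2 and 3 (highest adjusted p = 0.153). The mean level of the 16 microglial genes well above background lay between 0.10 and 0.29 in the young animals, between 0.66 and 0.76 at 12 months and between 1.08 and 1.27 at 24 months; Siglech was not well above background in the young. The part of microglial RNA in these genes was not tested.

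The 4 members lower in the aged included Ugt8, Mal and Vtn. Ugt8, which makes the myelin lipid galactocerebroside, read 0.08, 0.07 and 0.01 in the young and −0.86, −0.78 and −1.03 in the aged, with no overlap (−0.95 ± 0.12, adjusted p = 0.0051). With slide as a block its difference was −1.34 and did not pass (adjusted p = 0.074). The myelin protein gene Mal fell by 0.52 ± 0.07 (adjusted p = 0.0077), with each animal left out and with slide as a block alike. Vtn, a pericyte gene, was −0.46 ± 0.09 (adjusted p = 0.048), and lost its call without any 1 of the 9 animals (highest adjusted p = 0.161) and with slide as a block (adjusted p = 0.064). The oligodendrocyte list had 3 of 19 members lower and a median of −0.31.

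In the middle-aged animals 5 of the 518 members passed, where 48 of 25446 items (0.189%) did, 38 (0.149%) higher and 10 (0.0393%) lower. Without any 1 of the 9 animals the count over all items fell to between 2 and 25. Qdpr (0.52 ± 0.08, adjusted p = 0.048), Trem2 (1.08 ± 0.11, adjusted p = 0.021) and Tyrobp (0.82 ± 0.11, adjusted p = 0.037) were higher than in the young, and Ugt8 (−0.82 ± 0.12, adjusted p = 0.047) and Mal (−0.60 ± 0.07, adjusted p = 0.024) lower. All 5 also passed in the aged animals in the same direction, with the young animals shared by both comparisons. The calls of Qdpr, Tyrobp and Ugt8 were lost without any 1 animal (highest adjusted p = 0.18, 0.162 and 0.177). That of Mal was lost without any 1 but aged replicate 3 (highest adjusted p = 0.121), and that of Trem2 without young replicate 3, aged replicate 2 or any 1 middle-aged animal (highest adjusted p = 0.101). With slide as a block Qdpr (0.50, adjusted p = 0.082) and Ugt8 (−1.12, adjusted p = 0.33) did not pass.

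**Figure D5:**
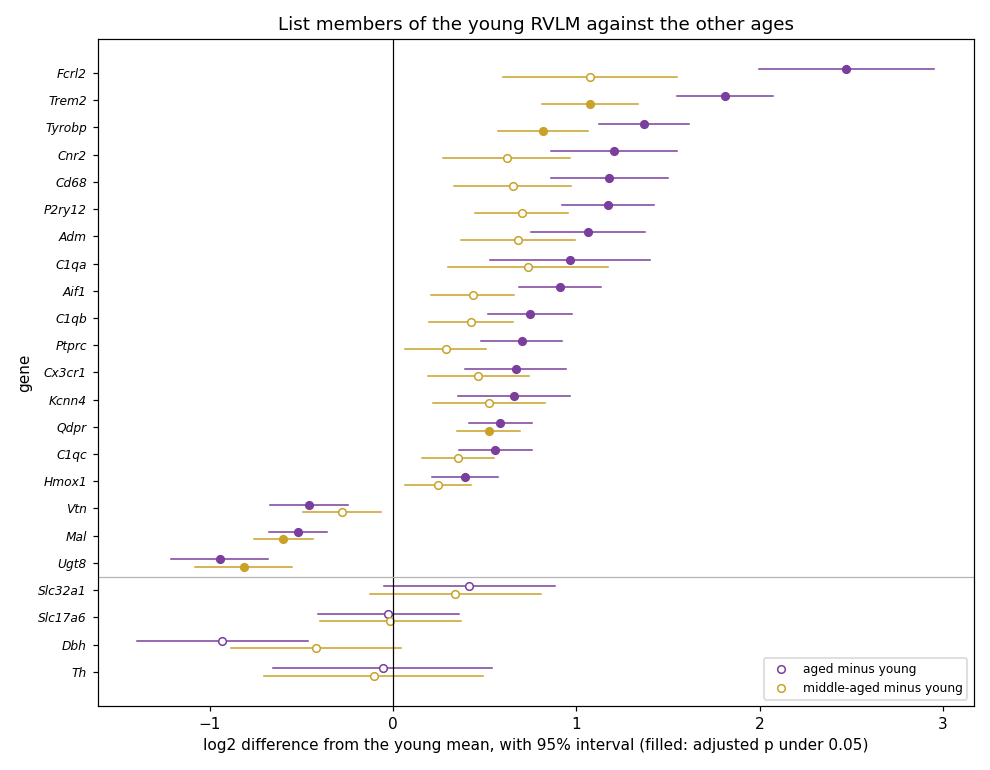
Log2 difference from the young mean (horizontal axis) with 95% intervals for the 4 region markers (below the line) and for 19 of the 22 list members that passed in the aged animals (above it); filled points have an adjusted p under 0.05. Trem2 (1.81) and Fcrl2 (2.47) lie farthest to the right, Ugt8 (−0.95) farthest to the left among those that passed, and the markers' points are open.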

How the data were processed

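RNA from 9 animals was measured on 12 whole rat genome arrays with 1 dye. Each deposited file gives the spot intensity of 1 array, not logged. Per the file headers, Agilent Feature Extraction 9.5.1.1 subtracted the background and detrended the processed signal. Other deposited columns are flags per spot (0 or 1). The deposited series matrix holds a score, a log signal standardised within each array, whose base of the logarithm and choice of features are unknown; it was an alternative only.

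Outlier and control spots were left out, spots of a probe averaged as log2, the array's 75th percentile subtracted, and both arrays of replicate 3 of each age averaged. Precision is limited by the number of animals, 3 per age. Nothing says how the animals were sampled beyond the labels, so p-values measure the spread between these animals. Of 41012 probes, 10735 and 126 were named through RefSeq by systematic and listed accession, 5542 by symbol and 3703 by synonym; 3302 kept the name in the file and 17604 had none. Positions are rn3, per the file headers, counted from 1. Ages were compared with limma 3.58.1 in R 4.3.3 (3 group means, two-sided, 29797 probes kept, each flagged throughout 1 group or more). Figures used matplotlib 3.10.9.

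Named genes were the cell type markers, each list's 3 brightest members, those with no or partial flags, the 2 with the largest SD and those past the threshold; genes named beyond this were chosen for their known role or after their values were seen. The members and lists were chosen with earlier results of these data known. Genes with no named probe, such as Pnmt, Gabra2 and Acta2, were not analysed here, and some members that enter the counts are not reported here by name. Alternatives were other flags and probes, background correction, normalization, filter, slide and replicate blocks, and leaving out each animal; slide 3 alone was added after seeing the data. The limma fit was tested on simulated data.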

Additional observations from a re-analysis of the deposited data

How the results depend on the processing

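The count of 13810 named genes well above background moved to between 13358 (every probe of the gene flagged) and 14847 (at least 1 array), and that of list members from 554 to between 513 and 598; signal above the 99th percentile of negative control spots gave 13765 and 550. The median rank percentile of the members of the first 7 families, 57.4, was 51.4 on the series matrix values, which hold fewer features, 56.8 as the mean over a gene's probes, and 56.7 to 57.3 with each young animal left out. Aged minus young called 513 items, and 282 with no filter on dim probes, 340 with normexp, 339 in a fit of only the groups compared, 301 with slide as a block and 253 to 488 with each animal left out. Middle-aged minus young called 48 items, and 5, 28, 3, 28 and 2 to 25 under the same alternatives. With the replicate number as a block the counts were 341 and 8. The cause of these changes was not tested. Deviations from the group mean correlated at −0.41 to 0.37 between same-numbered animals and at −0.39 to 0.34 between differently numbered ones. Deviations from a mean of 3 animals depend on each other, so these values cannot decide whether the numbers pair the animals. The calls of Vtn, Hmox1, Kcnn4, C1qa, Cx3cr1, C1qc and Ptprc in the aged were lost under 16, 14, 11, 10, 9, 6 and 2 of 16 alternatives, and those of Adm, Cnr2, P2ry12 and Qdpr in the aged under 0. Slide 3 alone, added after seeing the data, holds 1 animal of each age, so its differences repeat those of single animals and are no test of the slide. Signals near the floor of −6.25 to −5.97 limit what can be said of dim genes.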
